A study of Mus musculus with 14 samples.

Results

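The genes described here are 42 genes of skeletal muscle that encode its contractile filaments, its Z-disc, its calcium handling proteins, its energy enzymes and its regulators. They were read from arrays of mouse lung. Their symbols were matched to the table of array probes, and the probe with the brightest mean over 14 arrays was taken for each gene. Of the 42 genes, 35 had a probe, among 13923 genes named by the 19621 probes. Myh1, Mybpc1, Mybpc2, Neb, Xirp1, Cacna1s and Trim63 had none and were not analysed here. Mb and Chrna1 had 2 probes each.

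The study asked how mice that lack JNK1, a stress-activated MAP kinase, respond to injury of the lung by mechanical ventilation. Total RNA from flash frozen lung tissue of jnk1-/- mice and of wild-type (WT) mice was measured on single-colour arrays, 1 array per sample. The 4 groups were 4 ventilated jnk1-/- mice, 3 control jnk1-/- mice, 4 ventilated WT mice and 3 control WT mice. Both genotypes had the C57/BL6 background, and the methods state that age and sex were matched. In the plots jnk1-/- is written jnk1 KO. Every mouse was anesthetized with ketamine and acepromazine. Ventilated mice were then kept for 8 hours on room air at a tidal volume of 10 ml/kg with a PEEP of 2 cmH2O. They also received hourly recruitment maneuvers and hourly pancuronium bromide, which blocks the neuromuscular junction. Control mice were killed after induction of anesthesia, so ventilation, the blocker and the hours under anesthesia cannot be told apart here. Levels are given as normalised log2 intensities, set on 1 scale over all arrays by cyclic loess, and differences are on the same log2 scale.

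Skeletal muscle contracts when myosin of the thick filament pulls on actin of the thin filament. Troponin and tropomyosin block the thin filament until calcium, released from the sarcoplasmic reticulum, binds troponin C. Fast and slow fibres build the same machine from different genes of each family, and myoglobin, creatine kinase and glycolytic enzymes supply its energy. Lung parenchyma holds no skeletal muscle fibres, while cardiac muscle is known to extend along the pulmonary veins of mice.

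The 42 genes were chosen by their function and by their levels in these arrays, above all the higher levels of many of them in jnk1-/- controls. Differences that involve the jnk1-/- controls are therefore a description. No p is given for them, and a count of genes past the threshold there describes the chosen genes and supports nothing. Over the 35 measured genes the median level was 7.51, 7.15 and 7.14 on the 3 arrays of jnk1-/- controls, against 4.40, 4.58 and 4.49 on those of WT controls. It was 3.85, 4.03, 3.86 and 4.11 in ventilated jnk1-/- mice, against 3.42, 4.20, 4.37 and 4.22 in ventilated WT mice. The jnk1-/- controls stood apart from the other 11 arrays, which overlapped between ventilated jnk1-/- and ventilated WT mice. The sum of the 35 linear intensities ranged over 16790 to 25400 in jnk1-/- controls, against 3137 to 9221 in WT controls. It ranged over 2834 to 3543 in ventilated jnk1-/- mice, against 2884 to 4712 in ventilated WT mice. Mb enters these sums by its brighter probe, which read 4.40, 11.48 and 12.25 on the WT controls, so the range in WT controls rests in part on that probe. In the values normalised by the authors, 24.5% lie at a floor of 3.12, and between 2 and 5 of the 35 genes sat there on a jnk1-/- control array, against 8 to 16 on any other array. In lung RNA, fewer muscle cells and less RNA per cell cannot be told apart.

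**Figure D1:**
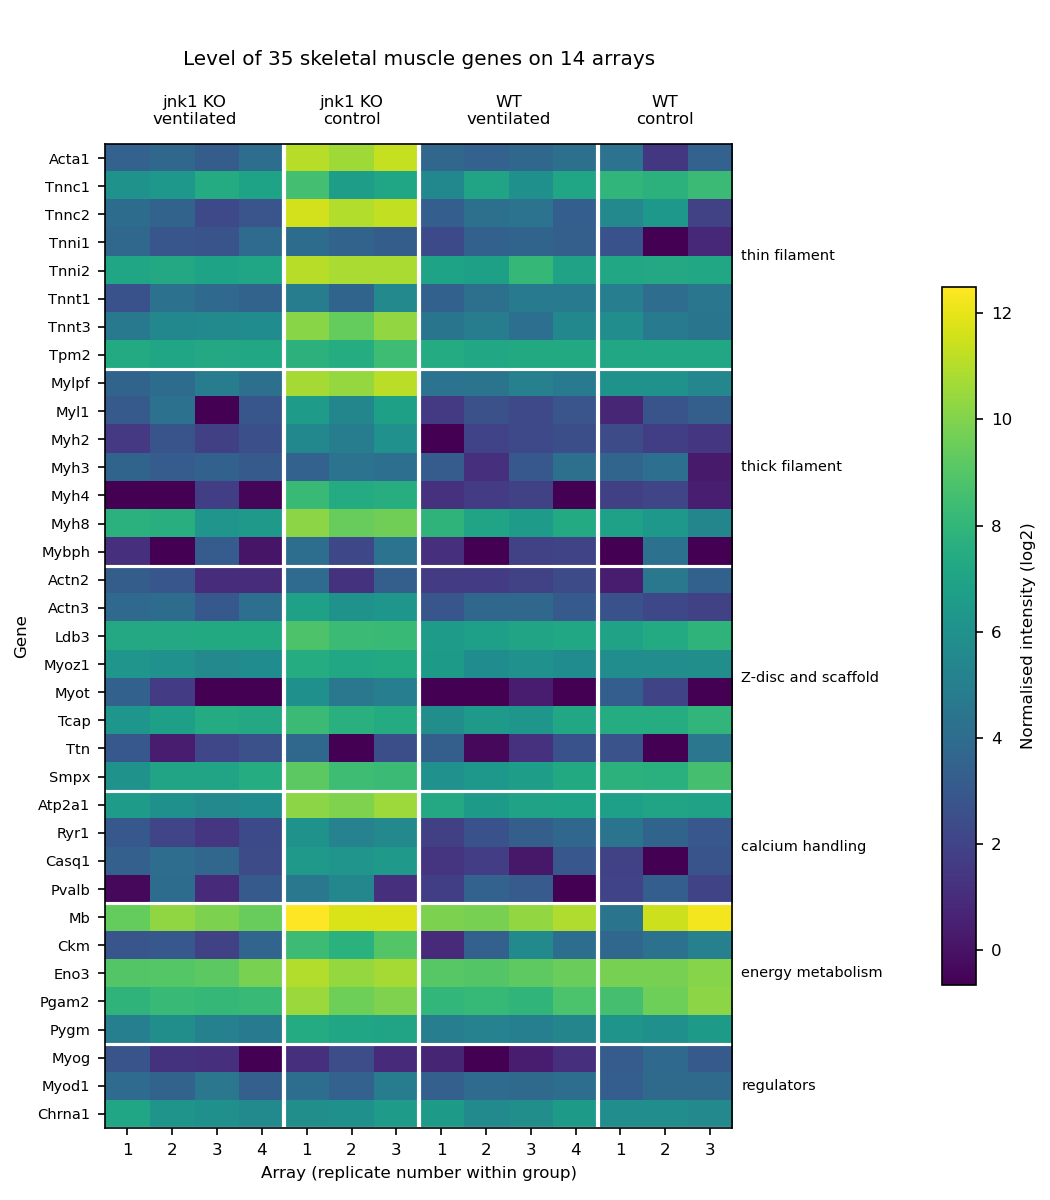
Each row is 1 of the 35 measured genes, ordered by role, and each column is 1 of the 14 arrays, with colour giving the normalised log2 intensity. The 3 columns of jnk1 KO controls are brightest for Acta1, Tnnc2, Tnni2, Tnnt3, Mylpf and Atp2a1, whereas Mb, Eno3 and Pgam2 are bright in most columns.

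Some facts of the whole series bear on these values. Of 16 lung epithelial markers 11 had a probe, and their median level was between 11.18 and 12.96 on all arrays. It was not level between the controls, at 12.13, 12.27 and 12.96 in jnk1-/- controls against 11.51, 11.60 and 11.66 in WT controls. All 11 differences between these groups were above 0, with a median of 0.60. The single probe of Mapk8, which encodes JNK1, read 2.07, −0.35 and 2.93 in jnk1-/- controls against 3.09, 2.55 and 3.37 in WT controls. That difference of −1.45 did not pass the threshold (limma, SE 0.88, adjusted p = 0.365), and the probe was at the floor of the authors' values on 6 of 7 jnk1-/- arrays against 3 of 7 WT arrays, so it checks the genotype labels weakly. WT controls 2 and 3 were closer to each other than other pairs of WT controls (SD of the probe differences 0.44 against 0.51 and 0.62), as were jnk1-/- controls 1 and 2 (0.37 against 0.68 and 0.70). Nothing in the sources used here says which arrays were processed together.

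In jnk1-/- controls many of these genes were brighter than in WT controls, among them Acta1, Tnnc2, Tnnt3, Mylpf and Ckm. Between these groups 14 of the 35 genes were higher past the threshold, an adjusted p of 0.05 in limma over all probes. The same call was made for 2.21% of all probes. The methods' test, with each probe's own spread and the same adjustment, called 0 of the 35. The arrays of the 2 groups did not overlap, with jnk1-/- controls higher, for 22 genes, and for 16.1% of all probes. The median difference was 1.97 over the genes, 0.12 over all probes, and 1.04 over the genes in the authors' normalised values. Of the 35 differences, 32 were above 0.

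The thin filament had 4 of its 8 genes past the threshold. Acta1, skeletal muscle alpha-actin, read 11.06, 10.61 and 11.36 in jnk1-/- controls against 4.34, 1.49 and 3.48 in WT controls, the largest difference measured among the 35 at 7.90. Tnnc2, the calcium sensor of fast troponin, read 11.60, 10.95 and 11.28 in jnk1-/- controls against 5.56, 6.35 and 1.87 in WT controls, a difference of 6.69. For both genes every jnk1-/- control was above 10, and the WT controls were spread out, with 1 of 3 at the floor of the authors' values. Tnnt3, the fast troponin T that anchors the complex to tropomyosin, read 10.15, 9.37 and 10.36 in jnk1-/- controls against 5.82, 4.72 and 4.45 in WT controls, which is 31.3-fold. Tnni2, the fast inhibitory subunit, read 11.10, 10.81 and 10.81 in jnk1-/- controls against 7.22, 7.25 and 7.22 in WT controls, 12.8-fold, with the arrays of each group within a narrow range. Tnni2 and Tnnt3 are neighbours on chromosome 7. The other 4 genes did not pass. Tpm2, beta-tropomyosin of skeletal and smooth muscle, differed by 0.69, and the slow fibre troponins Tnni1, Tnnt1 and Tnnc1 differed by 2.65, 0.19 and −0.56.

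Of the thick filament, 7 of 10 genes were measured and 4 passed. Myh4, the myosin heavy chain of the fastest type IIb fibres, read 8.24, 7.42 and 7.55 in jnk1-/- controls against 1.84, 2.11 and 0.45 in WT controls, a difference of 6.27. All 3 WT controls were at the floor of the authors' values for Myh4, which makes it at least 19.1-fold brighter in jnk1-/- controls on that scale. Mylpf, the fast regulatory light chain, read 10.70, 10.39 and 11.11 in jnk1-/- controls against 6.11, 6.11 and 5.45 in WT controls, 28.7-fold and clear of the floor throughout. Myh8, the perinatal heavy chain, read 10.18, 9.44 and 9.66 in jnk1-/- controls against 6.85, 6.38 and 5.37 in WT controls, a difference of 3.56. Myl1, the fast essential light chain, read 6.57, 5.37 and 6.81 in jnk1-/- controls against 0.78, 2.77 and 3.31 in WT controls. Its difference of 3.96 did not pass although the arrays did not overlap, and it was at least 6.75-fold brighter on the authors' scale. Myh2, the type IIa heavy chain, was at least 4.14-fold brighter on that scale and passed. Myh3, the embryonic heavy chain, differed by 1.29, and Mybph, a myosin binding protein, by 2.58, and neither passed. The heavy chain genes Myh1, Myh2, Myh3, Myh4 and Myh8 lie together on chromosome 11 and are close copies of each other, so the probes of this family may share signal.

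At the Z-disc, which joins the thin filaments of neighbouring sarcomeres, 8 of 10 genes were measured and 3 passed. Actn3, the alpha-actinin of fast fibres, read 6.88, 6.05 and 6.23 in jnk1-/- controls against 2.65, 2.17 and 1.94 in WT controls, and was at least 8.51-fold brighter on the authors' scale. Myoz1, a calcineurin-binding protein of fast fibres, read 7.51, 7.21 and 7.32 in jnk1-/- controls against 5.81, 5.78 and 5.82 in WT controls, 2.92-fold. Ldb3, a PDZ-LIM protein of the Z-disc, read 8.84, 8.30 and 8.23 in jnk1-/- controls against 6.95, 7.36 and 7.89 in WT controls, 2.08-fold. Myot, the Z-disc protein myotilin, read 5.97, 4.61 and 4.95 in jnk1-/- controls against 3.29, 2.04 and −0.65 in WT controls, a difference of 3.62 that did not pass, with the WT controls widely spread. Actn2, the alpha-actinin of all fibres and of heart, differed by 0.05, Tcap, a titin-binding protein, by 0.15, Smpx, a small protein of striated muscle, by 0.61, and Ttn, which encodes titin, by −0.33.

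Of the calcium handling genes, 4 of 5 were measured and 2 passed. Casq1, the calcium store protein of the sarcoplasmic reticulum, read 6.39, 6.22 and 6.47 in jnk1-/- controls against 1.93, −0.65 and 2.78 in WT controls, and was at least 6.8-fold brighter on the authors' scale. Atp2a1, the calcium pump of fast fibres, read 10.21, 9.95 and 10.56 in jnk1-/- controls against 6.77, 7.02 and 6.92 in WT controls, 10.1-fold with little spread in either group. Ryr1, the release channel, read 6.09, 5.18 and 5.52 in jnk1-/- controls against 4.38, 3.60 and 2.91 in WT controls, a difference of 1.97 that did not pass. Pvalb, a cytosolic calcium buffer of fast fibres, read 4.61, 5.42 and 1.18 in jnk1-/- controls against 1.98, 3.27 and 2.02 in WT controls, and these arrays overlapped.

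All 5 energy genes were measured and 1 passed. Ckm, muscle creatine kinase, read 8.37, 7.77 and 8.98 in jnk1-/- controls against 3.74, 4.25 and 5.05 in WT controls, 16.3-fold. The other 4 did not pass. Pygm, muscle glycogen phosphorylase, read 7.43, 7.14 and 7.01 in jnk1-/- controls against 6.13, 5.95 and 6.49 in WT controls, a difference of 1.004, and Eno3, muscle enolase, read 10.96, 10.40 and 10.71 in jnk1-/- controls against 9.82, 9.78 and 10.11 in WT controls, a difference of 0.78. The arrays of the 2 groups did not overlap for either gene. Pgam2, muscle phosphoglycerate mutase, differed by 0.56. Mb, myoglobin, read 12.49, 11.72 and 11.81 in jnk1-/- controls against 4.40, 11.48 and 12.25 in WT controls, where array 1 stood far below the others. The dimmer probe of Mb did not show that low array, with 12.10, 11.12 and 11.72 in jnk1-/- controls against 11.08, 10.30 and 11.30 in WT controls, a difference of 0.75. The 2 probes of Mb thus disagree on WT control 1, and its values from the brighter probe rest on that array.

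The regulators did not follow the contractile genes. Myog, the transcription factor of terminal muscle differentiation, read 1.18, 2.43 and 0.89 in jnk1-/- controls against 3.20, 3.83 and 3.09 in WT controls. These arrays did not overlap and the difference was −1.87, which did not pass. All 3 jnk1-/- controls and 1 of 3 WT controls were at the authors' floor, and on that scale Myog was at least 1.42-fold dimmer in jnk1-/- controls. Myod1, which commits cells to the muscle lineage, read 4.10, 3.48 and 4.86 in jnk1-/- controls against 3.29, 3.91 and 3.87 in WT controls, with overlap. Chrna1, the alpha subunit of the acetylcholine receptor at the endplate, read 5.85, 5.92 and 6.62 in jnk1-/- controls against 5.79, 5.77 and 5.55 in WT controls, which did not overlap but differed by only 0.43.

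**Figure D2:**
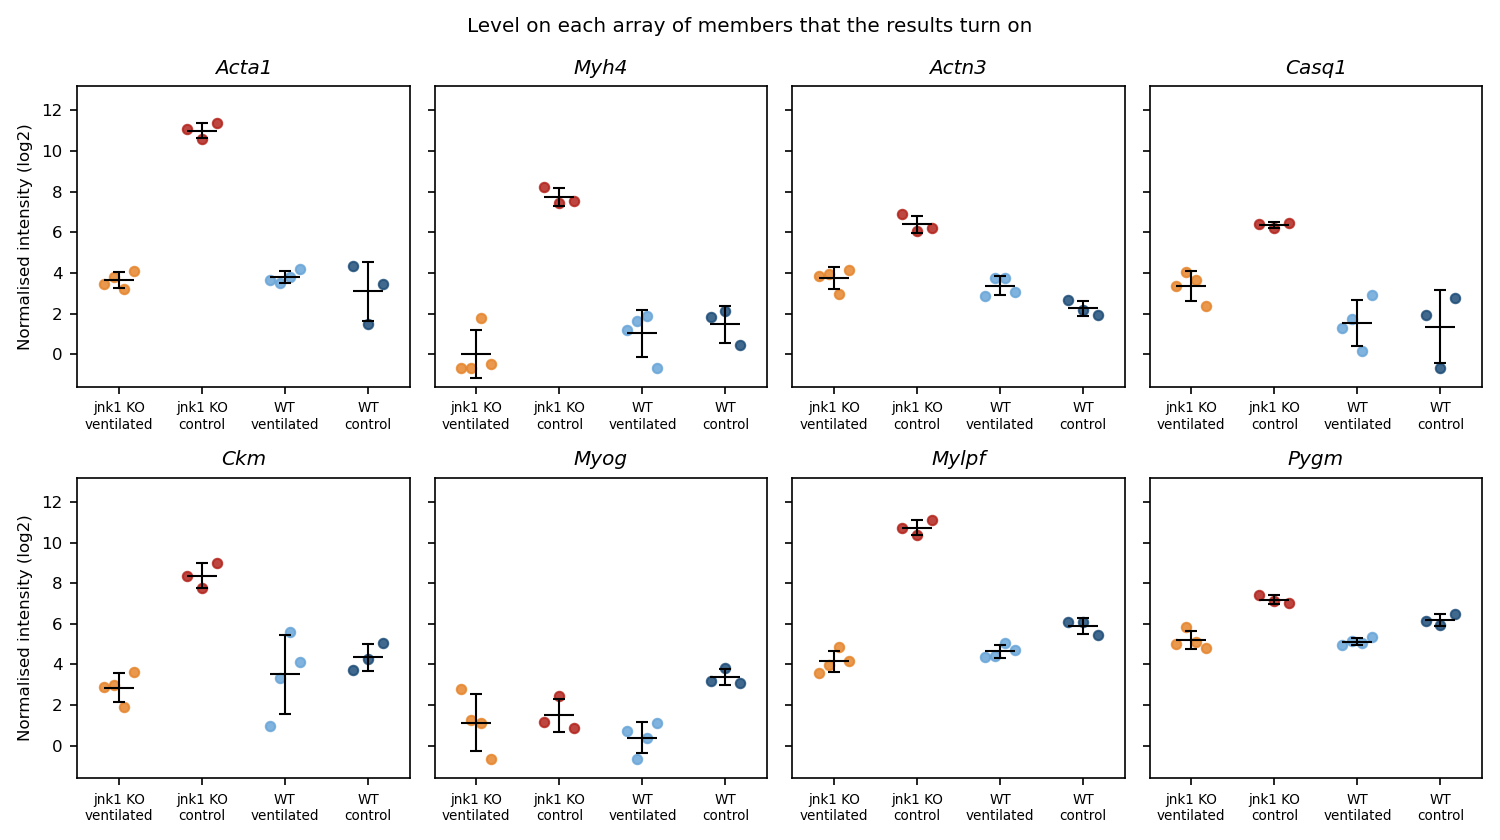
Normalised log2 intensity on each array of the gene with the largest difference between controls in each role group, plus Mylpf and Pygm, by group, with points for arrays and bars for the mean and SD. The jnk1 KO controls are the highest group in every panel but that of Myog, where the WT controls are highest at 3.09 to 3.83.

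Fast and slow isoforms of 1 family can be set side by side, with no test between them. The difference of jnk1-/- controls from WT controls was 6.69 for fast Tnnc2 and −0.56 for slow Tnnc1, and 4.97 for fast Tnnt3 and 0.19 for slow Tnnt1. It was 3.67 for fast Tnni2 and 2.65 for slow Tnni1, but all 3 WT controls were at the authors' floor for Tnni1, and on that scale it was at least 1.1-fold brighter in jnk1-/- controls. Actn3 was at least 8.51-fold brighter on that scale, and Actn2, which fast fibres use too, differed by 0.05. Myh7 and Myl3, slow genes of the myosin family, had higher means in jnk1-/- controls. Myh7, the heavy chain of slow fibres and heart, averaged 5.21 ± 0.74 in jnk1-/- controls and 2.42 ± 2.69 in WT controls (SD, n = 3 each), a difference of 2.80 that did not pass although the arrays did not overlap. Myl3, a light chain of slow fibres and heart, averaged 9.06 ± 0.63 in jnk1-/- controls and 6.19 ± 0.034 in WT controls (SD, n = 3 each), a difference of 2.87 past the threshold. Both are from the list of heart genes, where 12 of 20 differences between the controls were below 0, with a median of −0.18. Thus slow genes were not uniformly alike between the controls, and the fast genes Myl1 and Pvalb did not pass. Slow Tnnc1 is also the troponin C of heart, and its level was 8.57, 6.69 and 7.14 in jnk1-/- controls against 8.01, 7.77 and 8.31 in WT controls.

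**Figure D3:**
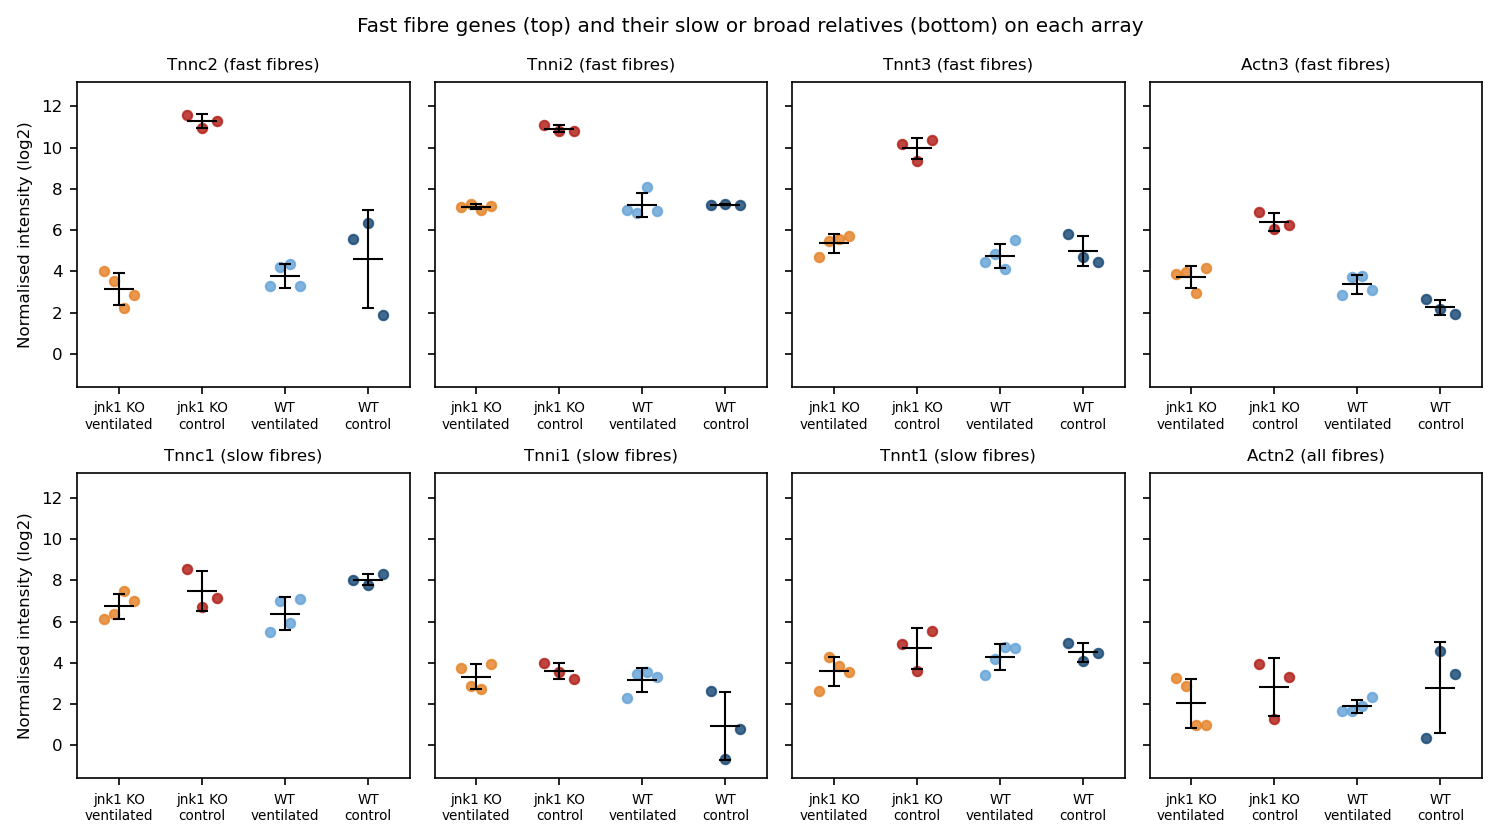
Normalised log2 intensity on each array of 4 fast fibre genes (top) and the slow or broadly used gene of the same family (bottom), with points for arrays and bars for the mean and SD. The jnk1 KO controls lie above all other arrays in the top row, and overlap at least 1 other group in each panel of the bottom row.

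The bases before the start sites of the genes were read for elements that muscle regulators are known to bind. Of the 42 genes, 33 had an entry in the RefSeq promoter table of build GRCm38.p6, and the 250 bases before the first listed start were searched. An E-box (CANNTG), the element of Myod1 and Myog, occurred in 27 of 33 promoters (81.8%), against 66% of the promoters of 27025 genes. Its form CAGCTG occurred in 16 of 33 (48.5%), against 12.8% of all. E-boxes read the same on both strands, and each CAGCTG is also counted as an E-box. The MEF2 site, searched on both strands, occurred in 6 (18.2%), against 3.01% of all. The CArG box, the element of serum response factor, also searched on both strands, occurred in 3 (9.09%), those of Acta1, Ldb3 and Myh4, against 1.4% of all. TATAAA on the strand of the gene occurred in 6 (18.2%), against 8.12%. These are matches of letters and say nothing of binding.

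Promoters are shown for 3 genes that were much brighter in jnk1-/- controls and for slow Tnnc1, which was not. Capitals mark E-boxes and, in Acta1, the CArG box, and each run is read on the strand of the gene and ends at the base before the start. The stretch of Acta1 lies at chr8:123894776-123895025 on the minus strand, that of Mylpf at chr7:127211358-127211607 on the plus strand, that of Tnnc2 at chr2:164779735-164779984 on the minus strand and that of Tnnc1 at chr14:31208062-31208311 on the plus strand, all in GRCm38.p6.
Acta1: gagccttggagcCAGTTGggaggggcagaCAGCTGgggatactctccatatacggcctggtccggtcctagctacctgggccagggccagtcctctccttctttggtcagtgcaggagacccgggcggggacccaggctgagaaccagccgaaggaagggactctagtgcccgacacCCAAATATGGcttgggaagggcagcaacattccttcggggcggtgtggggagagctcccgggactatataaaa
Mylpf: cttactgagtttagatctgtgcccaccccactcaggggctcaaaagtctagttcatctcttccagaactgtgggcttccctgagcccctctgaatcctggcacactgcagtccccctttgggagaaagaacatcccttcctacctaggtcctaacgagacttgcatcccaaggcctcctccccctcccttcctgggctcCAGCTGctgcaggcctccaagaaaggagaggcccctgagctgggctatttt
Tnnc2: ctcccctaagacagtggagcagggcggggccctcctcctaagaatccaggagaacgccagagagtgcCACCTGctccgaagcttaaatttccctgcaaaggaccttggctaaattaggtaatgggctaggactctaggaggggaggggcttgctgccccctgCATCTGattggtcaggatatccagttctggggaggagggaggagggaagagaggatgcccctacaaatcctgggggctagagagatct
Tnnc1: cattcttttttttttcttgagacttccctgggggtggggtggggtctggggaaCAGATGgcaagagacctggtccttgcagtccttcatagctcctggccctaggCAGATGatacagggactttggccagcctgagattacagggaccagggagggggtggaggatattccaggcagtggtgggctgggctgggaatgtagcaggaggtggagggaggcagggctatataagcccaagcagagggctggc
The promoter of Acta1 holds E-boxes that begin 238 and 221 bases before the start, the second of them CAGCTG, and a CArG box that begins at 73. That of Mylpf holds 1 CAGCTG that begins at 51. Both Tnnc2 and Tnnc1 hold 2 E-boxes of other forms, beginning at 183 and 88 in Tnnc2 and at 197 and 145 in Tnnc1, so an E-box by itself did not separate the gene that was bright in jnk1-/- controls from the one that was not.

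After ventilation the muscle genes of jnk1-/- lungs were far dimmer than in jnk1-/- controls. Between ventilated and control jnk1-/- mice, 22 of the 35 genes were lower past the threshold, a call made for 5.06% of all probes. The arrays did not overlap, with ventilated mice lower, for 24 genes and for 11.1% of all probes. The median difference was −2.002 over the genes and −0.04 over all probes. By role, 5 of 8 thin filament genes, 5 of 7 thick filament genes, 5 of 8 Z-disc genes, 3 of 4 calcium handling genes and 4 of 5 energy genes were lower. No regulator was called, and the differences were −0.38 for Myog, −0.30 for Myod1 and 0.08 for Chrna1. When jnk1-/- controls 1 and 2 were both left out, 14 genes were lower, in a fit where the 1 control array left is assumed to vary like the other groups. The methods' test called 6.

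Among the largest differences were those of Tnnc2, Acta1 and Mylpf, whose values in jnk1-/- controls are the ones given above. Acta1 read 3.47, 3.81, 3.21 and 4.11 in ventilated jnk1-/- mice, against 10.61 to 11.36 in jnk1-/- controls, a difference of −7.36. Tnnc2 read 3.99, 3.54, 2.23 and 2.84 in ventilated mice, against 10.95 to 11.60 in controls, a difference of −8.13, the largest measured among the 35. At the authors' floor were 2 of 4 ventilated arrays for Acta1 and 3 of 4 for Tnnc2. In the authors' values the differences were −7.35 for Acta1 and −7.84 for Tnnc2. Tnnt3 read 4.67, 5.48, 5.57 and 5.71 and Tnni2 7.11, 7.28, 6.99 and 7.14 in ventilated jnk1-/- mice, differences of −4.60 and −3.78 from their controls. For all 4 of these genes the ventilated arrays lay far below every control array of the same genotype.

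In the thick filament, Mylpf read 3.59, 3.98, 4.84 and 4.17 in ventilated jnk1-/- mice, a difference of −6.58 from controls. Myh4 read −0.65, −0.65, 1.80 and −0.46 in ventilated jnk1-/- mice, where all 4 arrays were at the authors' floor, so that it was at least 19.1-fold dimmer than in controls. Myh8 read 7.74, 7.61, 6.19 and 6.46 in ventilated jnk1-/- mice, a difference of −2.76, and stayed measurable in every mouse. Myl1 read 3.06, 4.28, −0.65 and 2.89 in ventilated jnk1-/- mice, a difference of −3.85, with 3 of 4 ventilated arrays at the authors' floor. The Z-disc genes Actn3, Myoz1 and Ldb3 differed by −2.65, −1.48 and −1.15 and were called. Myot was called as well, with all 4 ventilated arrays at the authors' floor, and was at least 4.33-fold dimmer on that scale.

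Atp2a1 read 6.54, 5.92, 5.53 and 5.72 in ventilated jnk1-/- mice, which is 19.9-fold lower than in their controls. Casq1 read 3.37, 4.03, 3.67 and 2.35 and Ryr1 2.99, 2.11, 1.42 and 2.29 in ventilated jnk1-/- mice, differences of −3.01 and −3.39. At the authors' floor were 2 of 4 ventilated arrays for Casq1 and 3 of 4 for Ryr1. In the authors' values the differences were −2.56 for Casq1 and −2.39 for Ryr1. Pvalb read −0.35, 4.01, 0.91 and 3.08 in ventilated jnk1-/- mice, with overlap. Ckm read 2.88, 2.99, 1.93 and 3.65 in ventilated jnk1-/- mice, a difference of −5.52, with 3 of 4 arrays at the authors' floor. Pygm read 5.02, 5.83, 5.10 and 4.83 and Eno3 8.97, 9.04, 9.16 and 9.86 in ventilated jnk1-/- mice, 4.00-fold and 2.70-fold lower than in controls. Mb read 9.40, 10.29, 9.87 and 9.45 in ventilated jnk1-/- mice, and its difference of −2.25 was not called, while that of its dimmer probe was −2.63. Among the regulators, ventilated jnk1-/- mice read 2.77, 1.27, 1.11 and −0.65 for Myog, 3.92, 3.54, 4.58 and 3.37 for Myod1 and 7.09, 6.16, 5.95 and 5.64 for Chrna1, each overlapping the jnk1-/- controls.

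In WT lungs few of the 35 genes passed the threshold with ventilation. Between ventilated and control WT mice 3 of the 35 genes, Mylpf, Pygm and Myog, were lower past the threshold, and 1.23% of all probes were lower by the same call. In all, 10 genes had an unadjusted p under 0.05. For this and later unadjusted counts the share over all probes is not given here, so they stand without a background. The median difference was −0.37 over the genes and 0.11 over all probes. Mylpf read 4.38, 4.41, 5.06 and 4.71 in ventilated WT mice against 6.11, 6.11 and 5.45 in WT controls, a difference of −1.25 (limma, SE 0.31, adjusted p = 0.0499). Pygm read 4.95, 5.18, 5.04 and 5.34 in ventilated WT mice against 6.13, 5.95 and 6.49 in WT controls, a difference of −1.06 (limma, SE 0.24, adjusted p = 0.0356). Myog read 0.72, −0.65, 0.38 and 1.15 in ventilated WT mice against 3.20, 3.83 and 3.09 in WT controls, a difference of −2.98 (limma, SE 0.69, adjusted p = 0.0377). For each of the 3 genes, no ventilated array reached the lowest control array.

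These 3 calls were near the threshold. Over the alternative settings the adjusted p in limma or the methods' test ranged over 0.0252 to 0.237 for Mylpf, 0.0117 to 0.324 for Pygm and 0.0102 to 0.357 for Myog, with the direction unchanged. The count of called genes was 0 without WT control 2 or 3 or ventilated WT mouse 1, 2 or 3, 1 without ventilated WT mouse 4 and 3 without WT control 1. All 4 ventilated WT arrays were at the authors' floor for Myog, and on that scale it was at least 1.42-fold dimmer than in WT controls.

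The genes with non-overlapping WT arrays were more than those called. In 7 genes every ventilated WT array was below every control array, namely Tnnc1, Mylpf, Tcap, Smpx, Eno3, Pygm and Myog, against 9.54% of all probes. In 1 gene, Actn3, every ventilated array was above, against 12.5% of all probes. Tnnc1 read 5.49, 7.01, 5.95 and 7.07 in ventilated WT mice against 8.01, 7.77 and 8.31 in WT controls, a difference of −1.65 (limma, adjusted p = 0.0977). Smpx differed by −1.42 (limma, adjusted p = 0.0761), Tcap by −1.23 (limma, adjusted p = 0.088), Pgam2 by −1.23 (limma, adjusted p = 0.0797) and Eno3 by −0.71 (limma, adjusted p = 0.121). Actn3 read 2.85, 3.75, 3.77 and 3.09 in ventilated WT mice against 2.65, 2.17 and 1.94 in WT controls, a difference of 1.11 (limma, adjusted p = 0.102), with all 3 controls at the authors' floor. The levels of Tnni1 differed by 2.22 (limma, adjusted p = 0.0757), also with all 3 controls at that floor.

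The genes with the largest differences between the controls of the 2 genotypes were not called with ventilation in WT mice, apart from Mylpf. Acta1 read 3.67, 3.50, 3.81 and 4.19 in ventilated WT mice, a difference from WT controls of 0.69 with a 95% interval of −0.45 to 1.83. Tnni2 read 6.99, 6.84, 8.08 and 6.90 in ventilated WT mice, a difference of −0.03 with an interval of −0.60 to 0.55, and Atp2a1 read 7.26, 6.53, 6.90 and 6.95 in ventilated WT mice, a difference of 0.01 with an interval of −0.55 to 0.57. Tnnc2 read 3.29, 4.20, 4.37 and 3.27 and Tnnt3 4.44, 4.85, 4.13 and 5.49 in ventilated WT mice, differences of −0.80 and −0.26. Mb differed by 0.87 on its brighter probe and by −1.21 on its dimmer probe, and without WT control 1 the difference of the brighter probe was −1.62 (limma, adjusted p = 0.0464). Myod1 read 3.40, 3.95, 3.90 and 4.08 and Chrna1 6.52, 5.64, 5.87 and 6.49 in ventilated WT mice, both overlapping WT controls.

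**Figure D4:**
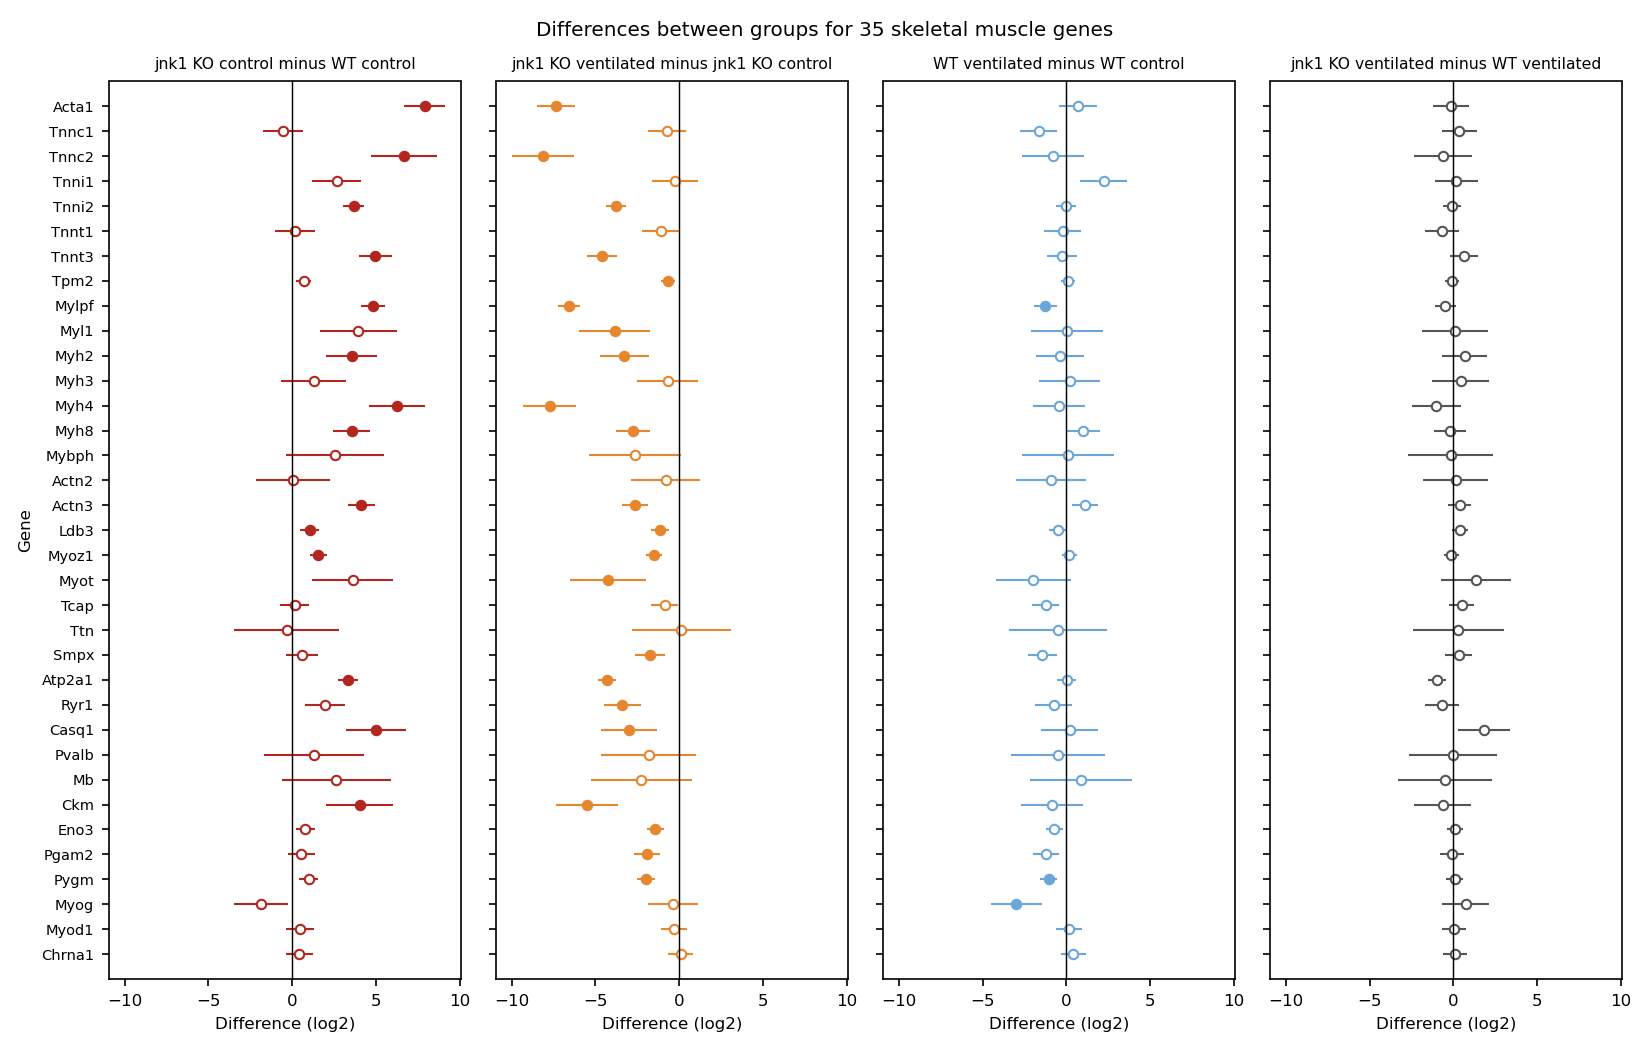
Difference in log2 intensity for each of the 35 genes in 4 comparisons, with lines for the 95% interval in limma, filled points past an adjusted p of 0.05 over all probes and open points otherwise. In the left pair of panels 14 and 22 points are filled, in opposite directions and with the jnk1 KO controls in both. In the right pair 3 and 0 points are filled. Those differences do not use the jnk1 KO controls, but these arrays enter the shared estimate of the spread behind the intervals and calls.

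Between ventilated jnk1-/- and ventilated WT mice 0 of the 35 genes passed in limma, against 0.612% of all probes, 2 genes had an unadjusted p under 0.05, and the methods' test also called 0. The median difference was 0.07. Atp2a1 had the lowest adjusted p, with a difference of −0.98 (limma, SE 0.24, adjusted p = 0.111). Without ventilated jnk1-/- mouse 1 it passed (adjusted p = 0.0445 in limma), so this call rests on 1 array. The other gene was Casq1 at 1.81 (limma, SE 0.71, adjusted p = 0.375), with all 4 WT arrays and 2 of 4 jnk1-/- arrays at the authors' floor. The intervals of the difference were wide for some genes and narrow for others. For Acta1 the 95% interval was −1.20 to 0.91, for Tnni2 it was −0.61 to 0.46, for Tnnt3 it was −0.22 to 1.47 and for Mylpf it was −1.12 to 0.13.

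The effect of ventilation was set against the genotype by subtracting the difference in WT mice from that in jnk1-/- mice. Here 10 of the 35 genes were lower past the threshold, and so were 0.199% of all probes. They were Acta1 at −8.04, Tnnc2 at −7.32, Tnni2 at −3.75, Tnnt3 at −4.34, Mylpf at −5.34, Myh4, Myh8 at −3.77, Actn3, Myoz1 at −1.66 and Atp2a1 at −4.32. Myh4 was at the authors' floor on all arrays but those of jnk1-/- controls, and Actn3 on those of all WT controls. With that floor in place of the unmeasured levels, the values were −4.26 for Myh4 and −2.85 for Actn3. The jnk1-/- controls enter this value too, and it is a description like the others that hold them. The energy genes Eno3, Pgam2 and Pygm were at −0.72, −0.67 and −0.94, and Tcap and Tnnc1 at 0.35 and 0.92, none of them called.

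After the values were seen, 2 sets of genes were picked out, and the remaining genes are in neither. Acta1, Tnnc2, Tnnt3, Tnni2, Mylpf, Myh4, Casq1, Atp2a1 and Ckm were bright in jnk1-/- controls and dimmer in the other 3 groups. Tnnc1, Tcap, Smpx, Eno3, Pgam2 and Pygm had lower group means after ventilation in both genotypes. That trait was not particular to them. Of the 35 differences with ventilation, 33 were below 0 in jnk1-/- mice and 21 in WT mice. In WT mice those of Mylpf, Ckm and Tnnc2, from the first set, were −1.25, −0.84 and −0.80. For the energy enzyme Pgam2, for example, the mean was 8.12 ± 0.18 in ventilated jnk1-/- mice and 10.02 ± 0.47 in jnk1-/- controls, and it was 8.24 ± 0.37 in ventilated WT mice and 9.46 ± 0.81 in WT controls (SD, n = 3 or 4). For Smpx it was 6.90 ± 0.62 in ventilated jnk1-/- mice and 8.64 ± 0.48 in jnk1-/- controls, and 6.60 ± 0.58 in ventilated WT mice and 8.02 ± 0.49 in WT controls.

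A second list held 81 other muscle genes, of which 60 were measured. Between jnk1-/- and WT controls 2 of the 60 were higher past the threshold, and 2.21% of all probes. They were Smtnl1, a smoothelin-like protein of fast fibres, at 4.85 and Cacng1, a subunit of the muscle calcium channel, at 2.95. The median difference over the 60 was 0.39. It is not set against that of the 35 genes, which were chosen in part for this difference. Between ventilated and control jnk1-/- mice 7 of the 60 were lower, against 5.06% of all probes, and 2 were higher, against 7.04% of all probes. Those 2 were subunits of the muscle acetylcholine receptor. Chrnd, the delta subunit, read 7.05, 6.54, 4.84 and 6.45 in ventilated jnk1-/- mice against 4.18, 4.46 and 4.22 in their controls, a difference of 1.93. Chrnb1, the beta subunit, differed by 0.63. Other subunits of the receptor were not called higher. Chrna1 differed by 0.08, and Chrne averaged 3.97 in ventilated jnk1-/- mice against 2.79 in their controls. Chrng averaged 2.72 against 2.83, with all arrays of both groups at the authors' floor. In WT mice Chrnd read 4.71, 5.70, 5.52 and 4.29 after ventilation against 3.68, 3.66 and 3.45 in controls, a difference of 1.46 (limma, adjusted p = 0.107), and Chrnb1 differed by 0.60 (limma, adjusted p = 0.0701). These subunits were picked out after their values were seen.

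Other relatives of these genes did not differ between the controls of the 2 genotypes past the threshold. They are mostly isoforms that many cells use, such as cytoplasmic actins and non-muscle myosins, and 19 of 25 were measured. The list also holds isoforms of heart, and Ryr2, Mybpc3 and Casq2 are on the cardiac list too. Limma called 0 of the 19, where 2.21% of all probes were called higher, so a list this short cannot show a lack of difference. The arrays did not overlap with jnk1-/- controls higher for 5 genes, against 16.1% of all probes, and lower for 1. In all, 4 had an unadjusted p under 0.05, and the median difference was −0.06. Beta-actin (Actb) differed by −0.32 and brain-type creatine kinase (Ckb) by 0.50, where Ckm differed by 4.02. Between ventilated and control jnk1-/- mice Ckb and Tpm1, alpha-tropomyosin, were lower, at −0.71 and −1.30, and the L-type channel gene Cacna1c was higher at 1.02. Over all probes 5.06% were called lower and 7.04% higher there.

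Genes of other tissues moved with the muscle genes, and their part in the muscle result was not tested. Stratified squamous epithelium, the lining of the esophagus and upper airway, had 37 of 42 marker genes measured. In jnk1-/- controls 16 of these were higher than in WT controls, a call made for 2.21% of all probes. Another 1 was lower, for which the share over all probes is not given here. This list too was chosen with earlier results of these data known, so the counts are a description. Its median level was 8.24, 7.65 and 7.67 on the arrays of jnk1-/- controls, against 3.80 to 4.22 in WT controls, and 4.32 to 5.14 in ventilated jnk1-/- mice, against 3.94 to 4.21 in ventilated WT mice. The keratin Krt13 read 11.54, 10.64 and 10.85 in jnk1-/- controls against 2.68, 1.59 and 2.54 in WT controls. Its partner Krt4 read 10.46, 9.35 and 9.77 in jnk1-/- controls against 6.66, 6.51 and 6.68 in WT controls. The summed level of the squamous list was 10110 to 16350 in jnk1-/- controls, and 3221 to 3731 in WT controls. Thus the same 3 arrays were high for both lists, and array 1 had the highest sum for both.

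Heart muscle genes did not follow that split. Of 22 markers 20 were measured, and 2 were higher in jnk1-/- controls than in WT controls, against 2.21% of all probes. They were Myl3, a light chain shared by heart and slow fibres, at 2.87 and the transcription factor Tbx20 at 1.58. Of the 20 differences between the controls 12 were below 0, with a median of −0.18, and 0 were called lower. The arrays did not overlap with jnk1-/- controls higher for 3 genes, against 16.1% of all probes, and lower for 0. The summed level of the cardiac list was 31130, 16170 and 10350 on the 3 arrays of jnk1-/- controls, against 18000, 16890 and 28770 in WT controls. The median difference of the list after ventilation was −0.67 in jnk1-/- mice, with 17 of 20 genes below 0, and −1.01 in WT mice, with 18 of 20 below 0. Limma called 3 of the 20 lower in jnk1-/- mice, against 5.06% of all probes. In WT mice limma called 0, with 12 at an unadjusted p under 0.05. The second set above, of Tnnc1, Tcap, Smpx, Eno3, Pgam2 and Pygm, thus ran beside the cardiac list, whose part in it was not tested. Sarcolipin (Sln) and cardiac actin (Actc1) are on both the cardiac and the second muscle list.

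Of the remaining lists, adipocyte markers had 1 of 10 genes higher in jnk1-/- controls than in WT controls, against 2.21% of all probes. Ventilated mice had 5 of 10 lower than controls among jnk1-/- mice, against 5.06% of all probes, and 3 of 10 lower among WT mice, against 1.23%. Smooth muscle had 1 of 11 lower in jnk1-/- controls, Cnn1 at −1.07. The share of all probes called lower between the controls is not given here, so this count stands without a background. In cartilage and thyroid limma called 0 of 14 and 0 of 4 genes between the controls, with 1 in each at an unadjusted p under 0.05. Of the 11 measured lung epithelial markers 1 passed the threshold between the controls. It was Sftpb, a surfactant protein, higher in jnk1-/- controls by 1.89, and all 11 differences were above 0.

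**Figure D5:**
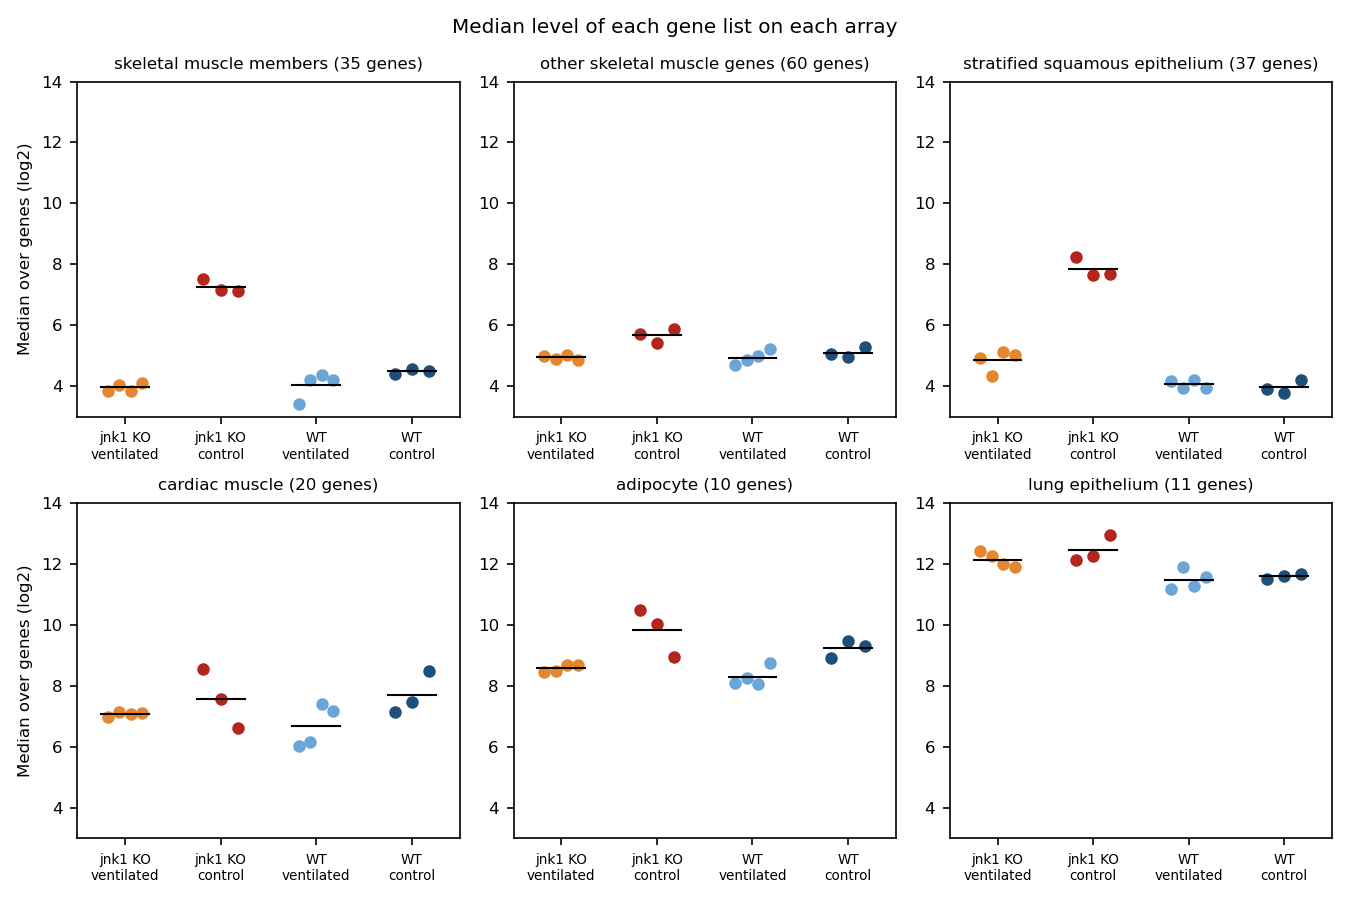
Median log2 intensity over the measured genes of 6 lists on each array, with points for arrays and lines for group means. The 3 jnk1 KO controls are apart from all other arrays for the 35 skeletal muscle genes and for the squamous list (8.24, 7.65 and 7.67), but not for the cardiac list, which spans 6.61 to 8.54 in them.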

How the data were processed

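Lung RNA of 14 mice was measured on CodeLink single-colour 20K mouse arrays. For each array the authors deposited raw log2 intensities, not yet set on a common scale, whose minimum is −6.86. They also deposited a joint table of log2 values normalised by cyclic loess, in which low values are raised to 3.12. Here the raw log2 intensities of 19621 probes were put through pairwise cyclic loess (91 pairs, span 0.7, 3 iterations), and then floored at −0.65, the 1st percentile of values above the minimum. The 4 group means were fitted with limma 3.58.1 in R 4.3.3, with Benjamini-Hochberg adjustment over all probes. The spread was estimated from all 14 arrays together, so the jnk1-/- controls enter the p-values and intervals of every comparison in this fit. The fit was tested on simulated data. The files hold no quality flags. The sources used here do not give the genome build behind the probes.

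Of the probes, 15353 name 1 gene, 91 several and 4177 none. The members, the other lists and the named genes were chosen with earlier results of these data known. Every member may be named. Values on each array are given for up to 4 members of each role with the largest difference between controls, for the regulators, and for members called in comparisons of other groups than the jnk1-/- controls. From other lists up to 5 genes past the threshold between controls are named, and the related isoforms. Genes named outside this rule were chosen after their values were seen. The number of arrays limits the precision. No source says whether the replicates of a group were processed apart, so p-values measure the spread between these mice only. Normalization, floors, filters, probe choice, array weights, the methods' test, a replicate block and the leaving out of arrays were tried as alternatives.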

Additional observations from a re-analysis of the deposited data

Results flagged for a closer look

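In the groups of 4 mice, 1 array lay apart from the other 3, judged by its gap over the range of the group, in 3 of 72 sets of values, where chance gives about 1 in 20. Tnni2 read 8.08 on the array of ventilated WT mouse 3, against 6.84 to 6.99 on the other 3. Myot read 0.33 on the same array, with the other 3 at the floor. Myh4 read 1.80 on that of ventilated jnk1-/- mouse 3, against −0.65 to −0.46 on the others, and all 4 were at the floor of the authors' values.

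The difference of the ventilation effect between jnk1-/- and WT mice was past the threshold and below 0 for 10 genes (limma, interaction of genotype and ventilation). It rests on the jnk1-/- controls, whose levels were known when the genes were chosen, so it is a description and no test of whether the effects differ. The values were −8.04 for Acta1, −7.32 for Tnnc2, −3.75 for Tnni2, −4.34 for Tnnt3, −5.34 for Mylpf, −3.77 for Myh8, −1.66 for Myoz1 and −4.32 for Atp2a1. For Myh4 the fit gave −7.29 and for Actn3 −3.76, where levels at the authors' floor leave the size unmeasured, and the authors' values gave −4.26 and −2.85.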

How the results depend on the processing

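Of 3485 values of single genes under alternative settings, 3250 kept their direction and side of the threshold. Direction turned past the threshold for 1, Mb between ventilated and control WT mice, which was 0.87 and became −1.62 without WT control 1. Leaving out 1 array at a time gave that Mb difference a range of −1.62 to 2.30. Without WT controls 2 and 3, with the low array 1 alone as control, it was 5.84 and past the threshold (limma, adjusted p = 0.000556). Where 1 array of a group is left, it is assumed to vary like the other groups.

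Between jnk1-/- and WT controls, 14 genes were called and the methods' t-test with Benjamini-Hochberg adjustment called 0. The median difference of 1.97 was 1.04 in the authors' values, 1.55 with a floor at the 5th percentile, without dim probes or with the dimmest probe of a gene, 2.30 with array weights, 1.76 without WT controls 2 and 3, and 1.61 to 2.18 with 1 array left out. Between ventilated and control jnk1-/- mice, 22 genes were called, 6 by the methods' t-test and 14 without jnk1-/- controls 1 and 2. Their median of −2.002 was −2.27 with array weights and −2.21 to −1.88 with 1 array left out. Between ventilated and control WT mice, 3 genes were called, 1 with quantile normalization, fast cyclic loess, no floor, the compared groups alone or without WT controls 2 and 3, 0 by the methods' t-test, 8 with array weights and 0 to 3 with 1 array left out. Between ventilated jnk1-/- and WT mice the count was 0, and 0 to 1 with 1 array left out. For the difference of the ventilation effect, 10 genes were called, and 6 without WT controls 2 and 3. Its median of −2.27 was −1.65 with fast cyclic loess, −0.79 in the authors' values, −2.62 with no floor, −1.64 with the higher floor, −1.66 without dim probes or with the dimmest probe, −1.95 with array weights, −1.78 without WT controls 2 and 3, and −2.63 to −1.67 with 1 array left out. The cause was not tested for any of these.

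Replicate numbers did not pair the mice, since the correlations of same-numbered arrays ranged over −0.32 to 0.25. With the replicate number as a block, limma called 13 genes between controls, 19 between ventilated and control jnk1-/- mice, 0 in WT mice, 0 between ventilated genotypes and 5 for the difference of the effect. Low intensity limits Myh4, Myh2, Myl1, Actn3 and Casq1 to lower bounds between controls.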
